A study of Homo sapiens with 2 samples.

Results

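The genes described here are 7 genes of cholesterol supply that sterol regulatory element-binding proteins (SREBPs) control: the enzymes HMGCS1, PMVK, FDPS, SQLE, HSD17B7 and EBP, and the regulator INSIG1. They were chosen by gene symbol, with earlier results of these data known, among the 14884 genes to which the platform annotation assigns a probe set, and 8 probe sets carried their names. The cells were AsPC-1, an established line of human pancreatic adenocarcinoma, grown in 3 dimensions under a collagen gel overlay in RPMI medium with fetal bovine serum and antibiotics. The compressed culture was kept under 2.9 mmHg for 24 h, and the uncompressed culture was grown in the same gel for 24 h with no load. Each culture's total RNA went onto 1 array of the type GeneChip Human Gene 2.0 ST, whose probes cover whole transcripts, and levels are log2 RMA signals as the authors deposited them. With 1 array per condition there is no replicate spread, no test and no p-value, and precision is limited by the number of arrays. "Higher" and "lower" describe these 2 arrays only, and in RNA from a whole culture a change in cell makeup cannot be told apart from a change in RNA per cell.

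Cells make cholesterol from acetyl-CoA through mevalonate, isoprenoid diphosphates, squalene and lanosterol. When sterols are low in the endoplasmic reticulum, the escort protein SCAP carries SREBPs to the Golgi, where proteases release the transcription factor domain that activates genes of this pathway. When sterols are plentiful, INSIG proteins hold SCAP back. INSIG1 is itself an SREBP target, so it is both a product of the pathway's control and a brake on it.

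SREBPs bind sterol regulatory elements in promoters and act together with NF-Y, which binds CCAAT, and with Sp1, which binds GC boxes. Promoter windows from RefSeq (GRCh38.p14), each running from 250 bases before to 50 bases after a start site, were found for 6 of the 7 members, and not for SQLE. They were searched on both strands for exact matches to the sterol element consensus TCACNCCAC, its shorter inner part CACNCCAC, CCAAT, the GC box GGGCGG and the E-box CACGTG. Any match to the longer sterol consensus also counts as a match to the shorter. The 250 bases before the start site are shown for the member highest among those above the level floor, for the enzyme highest among them, for the member with the largest difference, and for the member with none. Capitals mark every match, on either strand.
INSIG1, chr7:155297628-155297877, plus strand: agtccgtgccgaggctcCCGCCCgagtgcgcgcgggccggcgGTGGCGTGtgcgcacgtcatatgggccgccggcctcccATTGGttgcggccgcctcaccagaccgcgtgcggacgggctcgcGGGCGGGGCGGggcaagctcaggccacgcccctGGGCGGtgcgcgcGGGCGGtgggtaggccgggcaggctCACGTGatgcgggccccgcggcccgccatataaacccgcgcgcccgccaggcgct
HMGCS1, chr5:43313413-43313662, minus strand: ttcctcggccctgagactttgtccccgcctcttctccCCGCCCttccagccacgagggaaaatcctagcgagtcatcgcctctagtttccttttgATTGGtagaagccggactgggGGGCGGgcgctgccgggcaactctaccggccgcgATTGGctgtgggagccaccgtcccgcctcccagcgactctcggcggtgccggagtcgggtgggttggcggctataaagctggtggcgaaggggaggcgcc
HSD17B7, chr1:162790452-162790701, plus strand: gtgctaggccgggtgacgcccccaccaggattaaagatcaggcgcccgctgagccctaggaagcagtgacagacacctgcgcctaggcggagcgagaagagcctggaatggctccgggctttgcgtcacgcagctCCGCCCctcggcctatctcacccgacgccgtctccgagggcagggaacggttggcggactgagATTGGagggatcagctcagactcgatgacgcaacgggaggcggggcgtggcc
PMVK, chr1:154936720-154936969, minus strand: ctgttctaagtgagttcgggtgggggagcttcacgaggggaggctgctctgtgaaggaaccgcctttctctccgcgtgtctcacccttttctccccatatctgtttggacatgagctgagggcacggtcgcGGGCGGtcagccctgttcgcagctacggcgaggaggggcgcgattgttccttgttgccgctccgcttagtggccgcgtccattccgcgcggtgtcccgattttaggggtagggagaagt

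In INSIG1 the short sterol consensus lies on the opposite strand, starting 208 bases before the start site, and it was the only such match among the 6 members. Over all genes with a window, 7.05% held the short form and 1.39% the long form. A CCAAT box was present in 5 of the 6 members, PMVK being the exception, against 39.7% of all genes. HMGCS1 held 2 CCAAT boxes, 155 and 100 bases before the start site, in the window shown, and none in a second RefSeq window that starts within its transcribed region. FDPS and EBP held 3 CCAAT boxes each. A GC box was present in all 6 members, against 48.3% of all genes. An E-box was present in 1 of the 6 members, INSIG1, against 8.77% of all genes. These shares are over 27305 genes with a window, with no filter on gene type. These matches describe letters in a short window, and elements farther upstream were not searched.

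At the top of the pathway, HMGCS1, the cytosolic HMG-CoA synthase of the mevalonate pathway, had a log2 level of 7.997 on the compressed and 6.73 on the uncompressed array. The difference of 1.27 is 2.41-fold and ranked 33rd from the highest among the 7442 genes kept at or above the level floor. That floor was the median gene level, 4.79, taken on the mean of both arrays. No detection calls were at hand, so it is not known which dim probe sets rose above background.

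PMVK, which encodes phosphomevalonate kinase, read 6.75 on the compressed and 6.75 on the uncompressed array. Its deposited values were identical to the last digit. Exactly equal values occurred for 3118 of the 53617 probe sets (5.82%) and, among kept genes, for 182 (2.45%), and what produced them was not tested. PMVK was the only member with such a pair.

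FDPS encodes farnesyl diphosphate synthase, which makes the last isoprenoid shared by sterols and prenylated proteins. It had 2 probe sets. The brighter read 7.36 on the compressed and 6.97 on the uncompressed array, a difference of 0.39, and the dimmer read 6.18 and 5.62 in the same order, a difference of 0.56. Both were higher in the compressed culture, by 1.31-fold and 1.48-fold, and both lay under the size of 1.5-fold (0.58 on the log2 scale) by which genes were counted. Among kept genes, 90.5% had a smaller difference than the brighter probe set. The transcribed FDPS pseudogene FDPSP2, looked up after its values were seen, read 2.95 on the compressed and 3.00 on the uncompressed array.

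SQLE, squalene epoxidase, carries out the first oxygen-dependent step of the sterol branch. Its level was 8.62 on the compressed and 7.48 on the uncompressed array. It was 2.20-fold higher in the compressed culture, with a difference of 1.14 that ranked 48th of the kept genes.

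Of the 2 enzymes that act after lanosterol, HSD17B7, a keto-reductase that completes C4 demethylation, had the largest difference of any member and the least certain one. It read 4.96 on the compressed and 3.42 on the uncompressed array. The difference was 1.54, but the uncompressed value and the mean over both arrays, 4.19, lay below the floor. No fold is given for it, and counts of kept genes leave it out. Without a floor its difference ranked 27th of 14884 genes, of which 3.76% were higher by 1.5-fold or more. The near-identical transcribed pseudogene HSD17B7P2, named here because of its values, read 5.43 on the compressed and 4.47 on the uncompressed array, a difference of 0.96. Probes of the gene and the pseudogene may share targets, so the division of signal between them is uncertain.

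EBP, the sterol isomerase that moves the double bond of the B ring, read 7.01 on the compressed and 6.67 on the uncompressed array. It was 1.26-fold higher, a difference of 0.33 that exceeded those of 87.1% of kept genes and lay under the counting size. Its paralog EBPL, which lacks that isomerase activity, was looked up after its values were seen. EBPL had 2 probe sets that read 8.75 and 5.11 on the compressed array, against 8.995 and 5.62 on the uncompressed array, with differences of -0.24 and -0.50. The gene and its paralog thus lay on opposite sides of 0.

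INSIG1 had the largest difference of the members above the floor. It read 9.04 on the compressed and 7.54 on the uncompressed array, which is 2.83-fold higher and ranked 22nd of the 7442 kept genes. The difference of 1.499 was close in size to that of HSD17B7 and above those of HMGCS1 and SQLE.

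**Figure D1:**
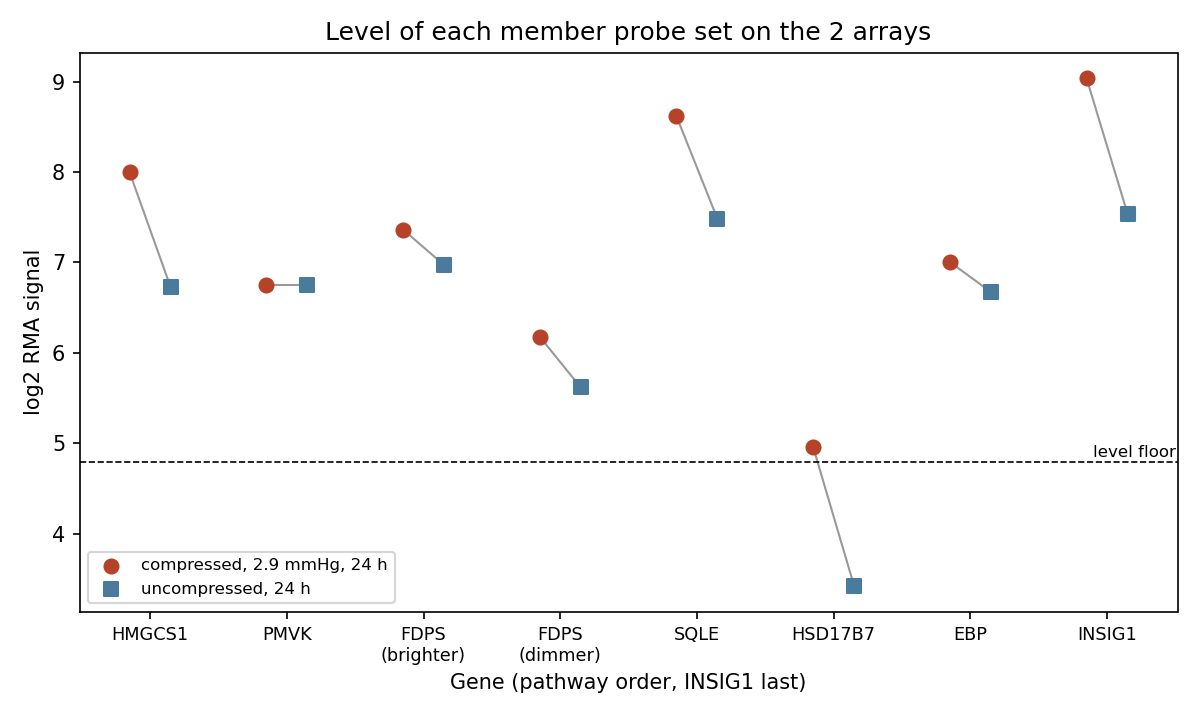
Log2 RMA signal (vertical axis) of the 8 member probe sets on the compressed array (circles, left of each pair) and the uncompressed array (squares, right), with the level floor of 4.79 as a dashed line and 1 array per condition. HMGCS1, SQLE, HSD17B7 and INSIG1 are separated by 1.14 to 1.54, FDPS and EBP by less, and the PMVK symbols lie at the same height; the HSD17B7 pair straddles the floor.

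Counted together, 3 of the 6 kept members were higher by 1.5-fold or more in the compressed culture and 0 were lower. Over all kept genes 3.95% were higher and 1.12% lower by that size. The same 3 members, HMGCS1, SQLE and INSIG1, were also higher by 2-fold or more, a size that 0.954% of kept genes reached. The median difference of the 6 kept members was 0.76, against 0.01 over all kept genes, whose interquartile range ran from -0.15 to 0.18. The remaining kept members, PMVK, EBP and FDPS, spanned 0.00 to 0.39.

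The background share differed little with level. When kept genes were divided into 4 equal bins by mean level, HMGCS1, SQLE and INSIG1 lay in the brightest bin, where 3.17% of genes were higher by 1.5-fold or more. PMVK, FDPS and EBP lay in the next bin, where 4.19% were. The median difference was -0.01 in the brightest bin and 0.03 in the next. A rough scale for the technical error of a single probe set comes from 150 protein-coding genes with exactly 2 different probe sets above the floor, whose differences gave an SD of 0.185 per probe set. Both probe sets of a gene were read on the same 2 arrays, so array or RNA effects that they share cancel. That scale also holds no variation between cultures.

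**Figure D2:**
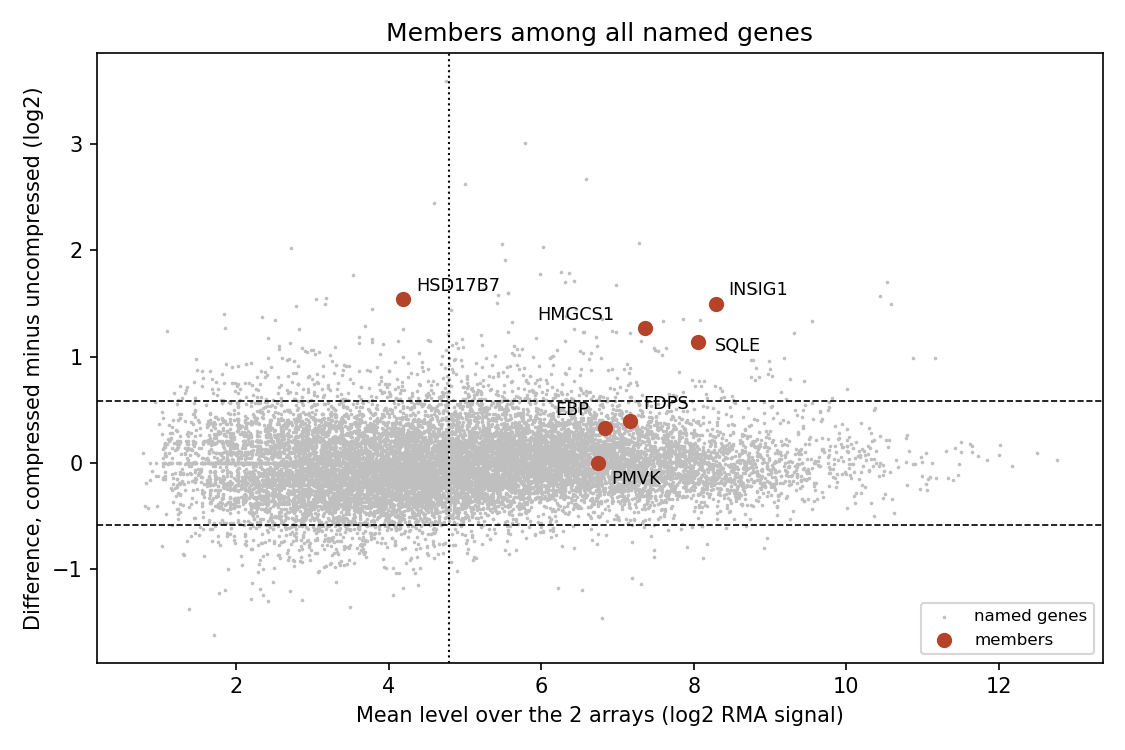
Difference, compressed minus uncompressed (log2, vertical axis), against mean level over both arrays (log2 RMA signal, horizontal axis) for the 14884 named genes (grey) and the 7 members (red). Dashed lines mark 1.5-fold in each direction and the dotted line marks the level floor; INSIG1, HMGCS1 and SQLE lie above the upper line, HSD17B7 lies above it but left of the floor, and PMVK lies at 0.

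The rest of the synthesis pathway was described with a list of 23 genes from acetoacetyl-CoA thiolase to cholesterol. Of these, 17 had a named probe set and 14 were kept. The other 6 were not analysed here. Of the 14 kept genes, 8 were higher by 1.5-fold or more under compression, and 0 were lower. By that size 3.95% of all kept genes were higher and 1.12% lower, so 0 lower is near the background share. Of the 14, 12 had positive differences, against 50.8% of all kept genes, and the median was 0.70. Leaving out the members, 6 of 9 kept enzymes were higher by 1.5-fold or more, 0 lower, and the median was 0.75. This list too was chosen with earlier results of these data known, so its other enzymes are no independent support.

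In the mevalonate and isoprenoid segment, the enzymes before HMGCS1 and on either side of PMVK had positive differences. ACAT2, the cytosolic thiolase that makes acetoacetyl-CoA, read 8.37 on the compressed and 7.59 on the uncompressed array, 1.71-fold higher. MVK, mevalonate kinase, which acts just before PMVK, read 5.99 on the compressed and 5.41 on the uncompressed array, and its difference of 0.57 lay just under the counting size. MVD, mevalonate diphosphate decarboxylase, which acts just after PMVK, read 7.54 on the compressed and 6.78 on the uncompressed array, 1.68-fold higher. PMVK at 0.00 was thus the lowest of the 7 kept genes of this segment, between neighbours at 0.57 and 0.75. Its deposited values were identical on both arrays, and what produced that was not tested, so its place here is uncertain.

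IDI1, the isomerase that interconverts the isoprenoid building blocks, read 7.12 on the compressed and 6.14 on the uncompressed array, a difference of 0.98 that was the largest among the enzymes other than the members. Its paralog IDI2 read 3.71 on the compressed and 2.95 on the uncompressed array, below the floor on both. In all, 4 of the 7 kept genes of this segment were higher by 1.5-fold or more (ACAT2, HMGCS1, MVD and IDI1). The share among all kept genes was 3.95%.

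After lanosterol, 3 of 6 kept genes were higher by 1.5-fold or more, against 3.95% of all kept genes. MSMO1, the C4 methyl sterol oxidase, read 9.25 on the compressed and 8.28 on the uncompressed array, a difference of 0.97. ERG28, known from yeast as the scaffold of the C4 demethylation enzymes, read 9.23 on the compressed and 8.26 on the uncompressed array, also a difference of 0.97. NSDHL, the decarboxylating dehydrogenase of the same complex, read 7.95 on the compressed and 7.40 on the uncompressed array, a difference of 0.55.

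DHCR7, which reduces 7-dehydrocholesterol to cholesterol, read 8.002 on the compressed and 7.36 on the uncompressed array, 1.56-fold higher. LBR and TM7SF2 both encode proteins with C14 sterol reductase activity, and LBR is also an inner nuclear membrane protein that binds lamin and chromatin. LBR read 8.27 on the compressed and 8.44 on the uncompressed array, and its difference of -0.17 was the only negative one among the 14 kept genes. TM7SF2 read 4.30 on the compressed and 4.43 on the uncompressed array, below the floor on both.

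**Figure D3:**
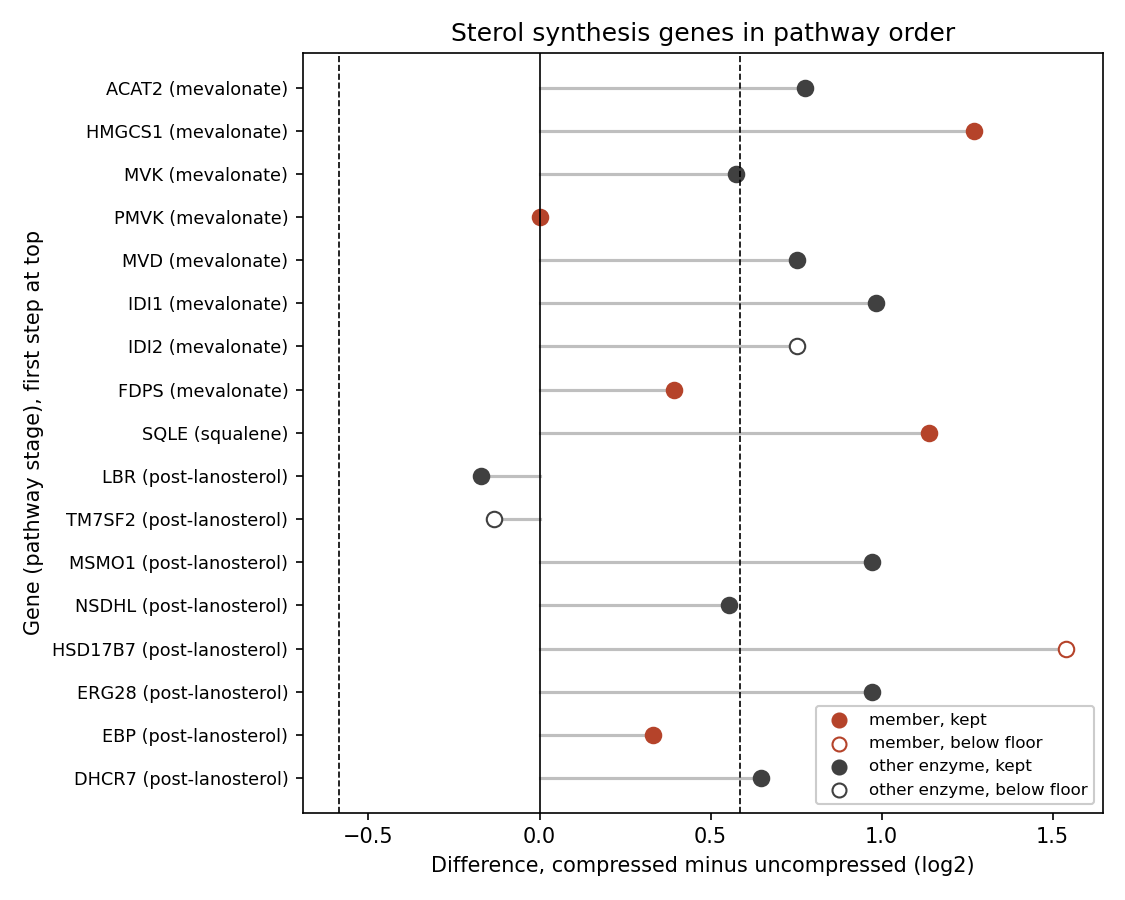
Difference, compressed minus uncompressed (log2, horizontal axis), of the 17 listed synthesis genes with a named probe set, first step at the top; red marks members, grey other enzymes, and open circles genes below the level floor. Dashed lines mark 1.5-fold; 8 kept genes lie beyond the right line and none beyond the left, PMVK lies at 0 between MVK and MVD, and LBR lies at -0.17.

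The genes of the SREBP machinery differed less than its target INSIG1. SREBF2, which encodes SREBP2, the form that mainly drives sterol genes, read 6.76 on the compressed and 6.30 on the uncompressed array, a difference of 0.46 that is 1.38-fold. Its promoter window was the only one among the listed sterol and control genes with the long sterol consensus, which starts 133 bases before the start site. SREBF1, which encodes the forms that mainly drive fatty acid genes, read 5.66 on the compressed and 5.57 on the uncompressed array, a difference of 0.10.

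SCAP, the escort protein, read 6.09 on the compressed and 6.11 on the uncompressed array. INSIG2, the paralog of INSIG1 that is not induced by SREBP in the same way, read 7.21 on the compressed and 7.03 on the uncompressed array, a difference of 0.18 against 1.499 for INSIG1. ERLIN1 and ERLIN2, endoplasmic reticulum proteins that bind the SREBP, SCAP and INSIG complex, had differences of -0.24 and -0.10. Of the 7 kept genes of this list, INSIG1 was the only one past 1.5-fold, 0 were lower by that size, and the median difference was 0.10. By that size 3.95% of all kept genes were higher and 1.12% lower, so 0 lower of 7 is near the background share. The protease genes MBTPS1 and MBTPS2 were not analysed here.

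Lists of sterol uptake, storage and related branches had few named genes or few past 1.5-fold. Over all kept genes 3.95% were higher and 1.12% lower by that size, so a count of 0 in lists this short says little. Of 9 listed SREBP2 targets and partners in uptake and transfer, 3 had a named probe set. STARD4, a cytosolic sterol transfer protein, read 7.28 on the compressed and 6.29 on the uncompressed array, a difference of 0.99 that ranked 74th of the kept genes. The other named genes of this list, TMEM41B and TMEM97, given to complete it after their values were seen, were at 0.44 and -0.11.

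In the list of fatty acid genes that SREBP1 controls, 2 of 10 kept genes were higher by 1.5-fold or more, ACSS2 at 1.24 and SCD at 0.61, 0 were lower, and the median difference was 0.33. Of 4 kept genes of isoprenoid use, 0 passed in either direction, with DHDDS, a subunit of the dolichol-forming transferase, at 0.45 and NUS1, its partner subunit, at -0.33.

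Of 3 kept genes linked to the liver X receptor and efflux, 0 passed in either direction. MYLIP, a sterol-regulated ubiquitin ligase gene, was at -0.43 and APOE, the apolipoprotein, at -0.12. Among 7 kept genes of sterol ester storage and transfer, 1 was lower by 1.5-fold or more. That gene was GRAMD1B, which carries plasma membrane cholesterol to the endoplasmic reticulum. It read 5.63 on the compressed and 6.81 on the uncompressed array, a difference of -1.18. Of the genes for mitochondrial relatives of the first steps, ACAT1 alone was kept, at -0.23.

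**Figure D4:**
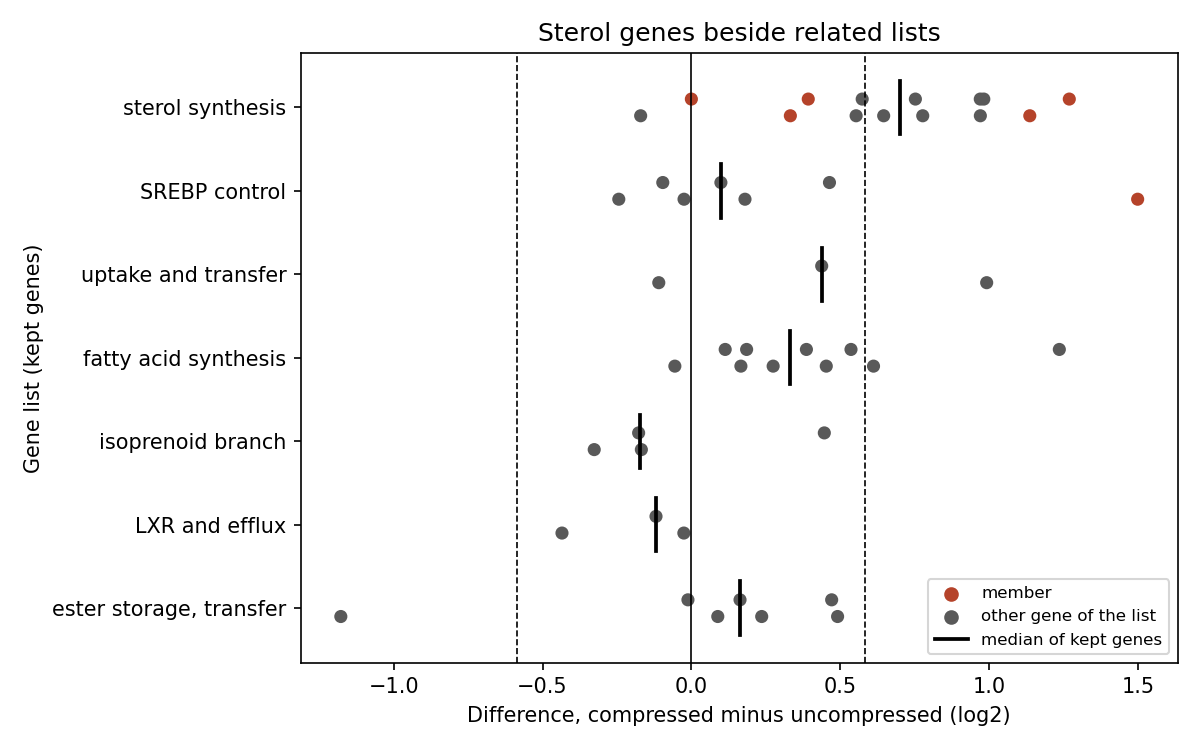
Difference, compressed minus uncompressed (log2, horizontal axis), of the kept genes of 7 lists (rows), with members in red, other genes in grey and the median of each list as a black bar; dashed lines mark 1.5-fold. The median of sterol synthesis is 0.70 and that of SREBP control 0.10, where INSIG1 stands alone to the right; GRAMD1B is the point at -1.18.

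Markers of the labelled cell type were measured on the same arrays. Of 10 named epithelial and pancreatic markers, 8 were kept, with KRT18 at 11.71 on the compressed and 11.54 on the uncompressed array, and 0 of the 8 differed by 1.5-fold. Over all kept genes 3.95% were higher and 1.12% lower by that size, so 0 of 8 is near the background share. Among the 8 markers EPCAM and GATA6 had the largest differences, -0.34 and -0.23. KRT7 lay below the floor on both arrays, at 3.78 on the compressed and 3.36 on the uncompressed. KRT18 and KRT7 were named after their values were seen. The summed linear signal of the 10 genes was 8830 on the compressed and 8804 on the uncompressed array.

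Of 16 named markers of other lineages, 12 lay below the floor, among them all 3 endothelial and all 6 acinar, islet and hepatic genes. The 4 above it were LUM, THY1, LYZ and CD68. LUM, a matrix proteoglycan, read 9.39 on the compressed and 9.75 on the uncompressed array, and THY1 had a difference of 0.22. LYZ, the lysozyme gene, named after its values were seen, read 8.82 on the compressed and 9.04 on the uncompressed array. CD68, a lysosomal protein used as a macrophage marker, read 9.26 on the compressed and 8.45 on the uncompressed array, a difference of 0.81. Summed linear signals were 707 and 890 for 3 fibroblast genes, 1095 and 906 for 4 leukocyte genes, 34.3 and 38.6 for the endothelial genes, and 80.4 and 93.1 for the acinar, islet and hepatic genes, compressed array first in each pair. The fibroblast sums come mostly from LUM and the leukocyte sums mostly from LYZ and CD68. The other sums add only genes below the floor, so none of these sums measures the content of a lineage. The part of these levels in the sterol gene differences was not tested.

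The kept genes outside these lists with levels nearest to a member's on both arrays were also found, by Euclidean distance over the 2 arrays. For HSD17B7 they were MIR181B1, DUSP10 and HOXA2, at distances of 0.88, 0.95 and 1.01. For INSIG1, added after the values were seen, they were PAQR5, MOSPD1 and ANPEP, at distances of 0.32, 0.55 and 0.56. With 2 arrays this measures a level and a difference, not a shared pattern. HSD17B7 itself lies below the level floor, so genes near its own mean level were outside the search.

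Under the processing settings tried, each member difference moved by less than the probe set SD of 0.185. Of the members only FDPS had 2 probe sets, so the mean and the dimmer probe set could change no other member. Median centring shifts all genes alike. Over the deposited values and 5 alternatives the INSIG1 difference ran from 1.497 to 1.508, that of HMGCS1 from 1.22 to 1.28, that of SQLE from 1.13 to 1.15 and that of HSD17B7 from 1.54 to 1.61. EBP ran from 0.28 to 0.34 and FDPS from 0.36 to 0.56. PMVK ran from -0.06 to 0.01 and has no settled sign.

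**Figure D5:**
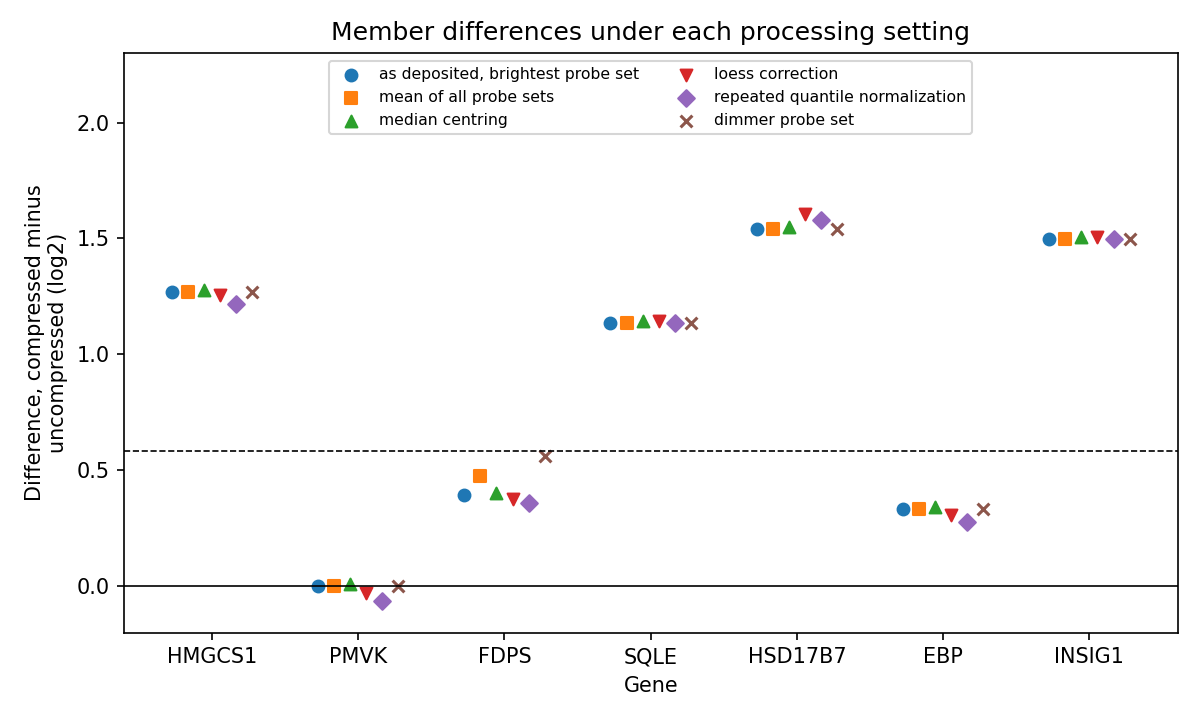
Difference, compressed minus uncompressed (log2, vertical axis), of each member under the values as deposited and 5 alternative settings (symbols), with 1.5-fold as a dashed line. INSIG1, HMGCS1, SQLE and HSD17B7 stay above the line in all 6 settings, and FDPS, EBP and PMVK stay below it. Members other than FDPS have 1 probe set, so the mean and dimmer settings repeat their deposited values.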

How the data were processed

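RNA of 1 compressed and 1 uncompressed AsPC-1 culture was measured on 1 array each, and the treatment characteristic gave the groups. The authors deposited log2 signals. The submitters' processing notes name RMA and the Transcriptome Analysis Console. RMA subtracts background, gives the arrays equal distributions and summarises probes, so a change common to all genes is lost and changes near background shrink. For tool versions and the array files' genome build, nothing is given in the sources used here.

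The platform annotation named 1 gene for each of 16098 of 53617 probe sets and several for 0, and the other 37519 are unnamed here. Current symbols came from RefSeq (GRCh38.p14), where 16098 were found. Of 14884 genes, 779 had several probe sets, and the one with the highest mean was used. The level floor, the median over genes (4.79), left 7442 kept genes. With 1 array per group, sizes of 1.5-fold were counted and nothing was tested. Named are the members, the synthesis and SREBP control lists, and of other lists the kept genes past 1.5-fold (up to 3 each way) or else the 2 with the largest differences; the exceptions are marked. The members and lists were chosen with earlier results of these data known. Some listed genes are not reported here. The counting code was checked on simulated data with the same noise at every level and planted 2-fold differences. That checks the code and not the error of these arrays. Alternatives were the mean of probe sets, median centring, loess (span 0.3), repeated quantile normalization, other sizes and floors; the dimmer probe set, protein-coding genes, a floor on the brighter array and leaving out equal values were added after seeing the data. Computations used Python 3.11.15, NumPy 2.4.6, pandas 2.3.3, statsmodels 0.14.6 and matplotlib 3.10.9.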

Additional observations from a re-analysis of the deposited data

How the results depend on the processing

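The count of 3 members higher and 0 lower was the same with the mean of probe sets, the dimmer probe set, median centring, loess, repeated quantile normalization, a floor at the 75th percentile, protein-coding genes, without equal values and at 2-fold. HMGCS1, SQLE and INSIG1 are protein-coding and have 1 probe set each, with unequal values. The settings of probe set, gene type and equal values therefore could not alter their differences. These 3 members lie in the brightest bin of kept genes, so the floor at the 75th percentile could not remove them. Median centring shifts all genes alike, and the count at 2-fold follows from differences already given. The count was 4 with no floor and with the floor on the brighter array, both through HSD17B7. The floor on the brighter array admits HSD17B7 only by its compressed value, 4.96, so its call there is no added support. Of the genes kept, 3.76% were higher by 1.5-fold or more with no floor and 4.41% with the floor on the brighter array. At a smaller size of 0.32 (log2) the count was 5, through FDPS and EBP, where 13.5% of kept genes were higher. At 2-fold, 2 of 14 listed enzymes (HMGCS1 and SQLE) and 0 of the 9 other enzymes were higher, so the count of enzymes depends on a size between 1.5-fold and 2-fold. The median of the 14 enzymes ran from 0.66 with repeated quantile normalization to 0.71 with median centring, and their mean was 0.66. Where a floor or leaving out equal values changed the set to 13, 15 or 17 enzymes, the median was 0.75. Over kept genes, 71 were higher and 6 lower at 2-fold, 1005 and 616 at the smaller size, 560 and 421 of 14884 with no floor, and 137 and 30 with the stricter floor. No paired analysis was possible because each group holds 1 array, and for the same reason no array could be left out. Signal over background is unknown, which limits HSD17B7, IDI2 and TM7SF2 most.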
